A study of Mus musculus with 16 samples.

Results

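RGS proteins (regulators of G-protein signalling) were followed at the RNA level in mouse striatum through 10 genes of the family, *Rgs2*, *Rgs4*, *Rgs7*, *Rgs8*, *Rgs9*, *Rgs10*, *Rgs12*, *Rgs14*, *Rgs16* and *Rgs20*. They were read on every probe set whose platform annotation gives a single symbol, where that symbol is in this list, which gave 23 probe sets of 34945 and 10 genes of 18193. The study hybridised 16 Affymetrix mouse genome arrays, 4 for each of 4 genotypes of B6xCBA mice: R6/2 x DREAM +/-, R6/2, DREAM +/- and wild type. R6/2 mice express a short N-terminal huntingtin fragment with an expanded glutamine tract from a transgene under the human huntingtin promoter, and model Huntington's disease. DREAM is a calcium-sensitive transcriptional repressor encoded by *Kcnip3*. The labels write the DREAM genotype as +/-, and the crossed animals came from mating DREAM knockout with R6/2 mice. The labels name no treatment, and the sources used here give neither the age of the mice nor any pooling of animals. They do not give which part of *Kcnip3* the knockout allele lacks.

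RGS proteins bind the active, GTP-loaded alpha subunit of a heterotrimeric G protein and speed up its GTP hydrolysis, so that signalling from a receptor ends sooner. In striatum the principal neurons, the medium spiny neurons, read dopamine, adenosine, acetylcholine, opioid and endocannabinoid inputs through G-protein-coupled receptors, and RGS proteins set the strength and duration of those inputs. The family is divided by sequence. *Rgs2*, *Rgs4*, *Rgs8* and *Rgs16* encode small proteins of the R4 subfamily, *Rgs7* and *Rgs9* belong to the R7 subfamily that works as a dimer with the beta subunit Gnb5, *Rgs10*, *Rgs12* and *Rgs14* form the R12 subfamily, and *Rgs20* is of the RZ subfamily.

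The values are the deposited log2 probe-set levels, on which 1 unit is a doubling, and each probe set was tested on its own with limma over all 34945 single-symbol probe sets. A probe set is said to have passed, risen or fallen where its p, adjusted by Benjamini-Hochberg over that whole table, was under 0.05. Of the 23 RGS probe sets, 20 had a mean above 5.94, the 40th percentile of all probe sets, which is used here only to mark dim probe sets. Replicates are separate biological samples per the series' design text. The RNA came from whole striatum, although the labels name striatal neurons. All 12 measured medium spiny neuron markers lay above 5.94 in every genotype, and so did all 8 astrocyte, 7 oligodendrocyte and 7 microglial markers. In such bulk tissue fewer cells of a type and less RNA per cell cannot be told apart.

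The targeted gene *Kcnip3* averaged 7.56 ± 0.12 in R6/2 x DREAM +/- and 9.11 ± 0.09 in R6/2, and 7.77 ± 0.04 in DREAM +/- and 9.67 ± 0.24 in wild type on its brighter probe set (log2, SD, n = 4 each). Its other probe set averaged 5.40 ± 0.16 in R6/2 x DREAM +/- and 7.995 ± 0.10 in R6/2, and 5.58 ± 0.21 in DREAM +/- and 8.53 ± 0.25 in wild type. On the brighter probe set R6/2 x DREAM +/- held 34.1% of the R6/2 level and DREAM +/- 26.9% of the wild-type level, and on the other 16.6% and 13.0%, where all arrays of both DREAM +/- genotypes lay under 5.94. In that order the log2 changes were -1.55, -1.895, -2.59 and -2.95, each beyond the -1 of a halving. Why *Kcnip3* lay under a halved level was not tested. The groups are called here what the labels call them, without a claim about the remaining DREAM dose. On the third principal component (13.2% of the variance over probe sets above 5.94) R6/2 x DREAM +/- replicate 3 lay at 35.7 and the other arrays between -14.5 and 5.01. Wild-type replicate 3 was lowest there, and on the first component (29.6%) it lay at -7.80, with the DREAM +/- genotypes (-19.6 to -4.02) and not with the other wild-type arrays (9.11 to 23.8). R6/2 replicate 1 had *Xist* at 6.49, against 11.04 to 12.16 on the other arrays. Without R6/2 x DREAM +/- replicate 3 and R6/2 replicate 1, 13 RGS probe sets passed in R6/2 against wild type (13 with them), 11 in R6/2 x DREAM +/- against DREAM +/- (9 with them) and 4 in R6/2 x DREAM +/- against R6/2 (3 with them). Without wild-type replicate 3 the counts were 13, 9 and 4, and 0 in DREAM +/- against wild type (0 with it), where the calls over all probe sets were 1403 (790 with it). With all arrays 4599, 2420 and 2711 of 34945 probe sets passed in the first 3 of these comparisons. Leaving out single arrays gave 3567 to 5423, 1372 to 2875 and 1410 to 3971. Whether the RGS counts only follow the whole table was not tested.

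The proximal promoters of *Rgs4*, *Rgs2* and *Rgs9* are shown because *Rgs4* was the RGS gene that rose with DREAM +/- in R6/2 striatum, *Rgs2* had the lowest p in DREAM +/- against wild type, and *Rgs9*, which is concentrated in striatum, fell with R6/2 on both DREAM backgrounds. Each run covers 250 bases before to 50 bases after the annotated start, 5′ to 3′ along the gene, from RefSeq on GRCm38.p6. Capitals mark GTCA, the core of the element that DREAM binds, and its reverse complement TGAC. The windows lie at chr1:169747593-169747892 (minus strand) for *Rgs4*, chr1:144004100-144004399 (minus strand) for *Rgs2* and chr11:109298132-109298431 (minus strand) for *Rgs9*.
Rgs4: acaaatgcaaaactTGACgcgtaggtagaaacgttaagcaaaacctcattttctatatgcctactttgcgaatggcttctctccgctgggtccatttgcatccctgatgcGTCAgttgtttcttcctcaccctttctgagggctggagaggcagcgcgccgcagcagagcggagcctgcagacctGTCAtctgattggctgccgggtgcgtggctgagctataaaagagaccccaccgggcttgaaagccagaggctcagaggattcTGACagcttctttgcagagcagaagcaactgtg
Rgs2: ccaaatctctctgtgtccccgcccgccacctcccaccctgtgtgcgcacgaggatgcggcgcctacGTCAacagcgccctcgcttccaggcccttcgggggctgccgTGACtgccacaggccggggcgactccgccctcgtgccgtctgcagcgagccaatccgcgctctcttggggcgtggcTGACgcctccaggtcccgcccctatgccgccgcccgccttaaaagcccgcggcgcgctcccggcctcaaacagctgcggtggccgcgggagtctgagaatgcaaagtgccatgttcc
Rgs9: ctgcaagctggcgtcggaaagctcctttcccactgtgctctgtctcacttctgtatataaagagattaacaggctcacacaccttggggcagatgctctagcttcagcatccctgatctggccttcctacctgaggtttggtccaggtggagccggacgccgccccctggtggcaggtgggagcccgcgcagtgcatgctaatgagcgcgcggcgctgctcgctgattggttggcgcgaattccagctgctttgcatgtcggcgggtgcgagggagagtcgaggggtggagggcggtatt

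The GTCA core is common: it occurs on either strand in 85.23% of the 32851 promoter windows of the RefSeq table. It was found 4 times in the *Rgs4* window, 3 times in the *Rgs2* window and 0 times in the *Rgs9* window. The half-site of the cAMP response element, TGACG on either strand, each instance of which also holds a GTCA core, was found 2 times in *Rgs4* (at -236 and -141 from the start) and 2 times in *Rgs2* (at -185 and -67), and 0 times in *Rgs9*. That half-site occurs in 20.81% of all windows, and the full palindrome TGACGTCA, found in 1.79% of all windows, was in none of the 11 windows of the 8 RGS genes in the table. Of those 11 windows, 9 held a GTCA core and 4 a half-site, the other windows with a half-site belonging to *Rgs8* and *Rgs12*. These letter matches describe the windows and do not show binding.

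The first question is what the R6/2 transgene changed among RGS genes on the normal DREAM background. Read on the brightest probe set of each gene, 7 of the 10 RGS genes fell in R6/2 against wild type, 0 rose and 3 did not pass. Over all genes measured in this way 7.44% fell and 8.22% rose. The 10 genes were chosen with earlier results of these data known, so their count is not an independent test. The median log2 change of the 10 genes was -0.53, against 0.03 over all genes. *Rgs4* and *Rgs14* fell to 49.5% and 49.7% of the wild-type level, *Rgs9* to 56.6%, *Rgs2* to 65.7%, *Rgs20* to 68.3%, *Rgs12* to 70.0% and *Rgs10* to 78.6%. Over all 23 probe sets, 12 fell and 1 rose, against 6.42% of all probe sets lower and 6.74% higher. None of the 12 lower calls was lost under any alternative setting in which the probe set was tested.

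**Figure D1:**
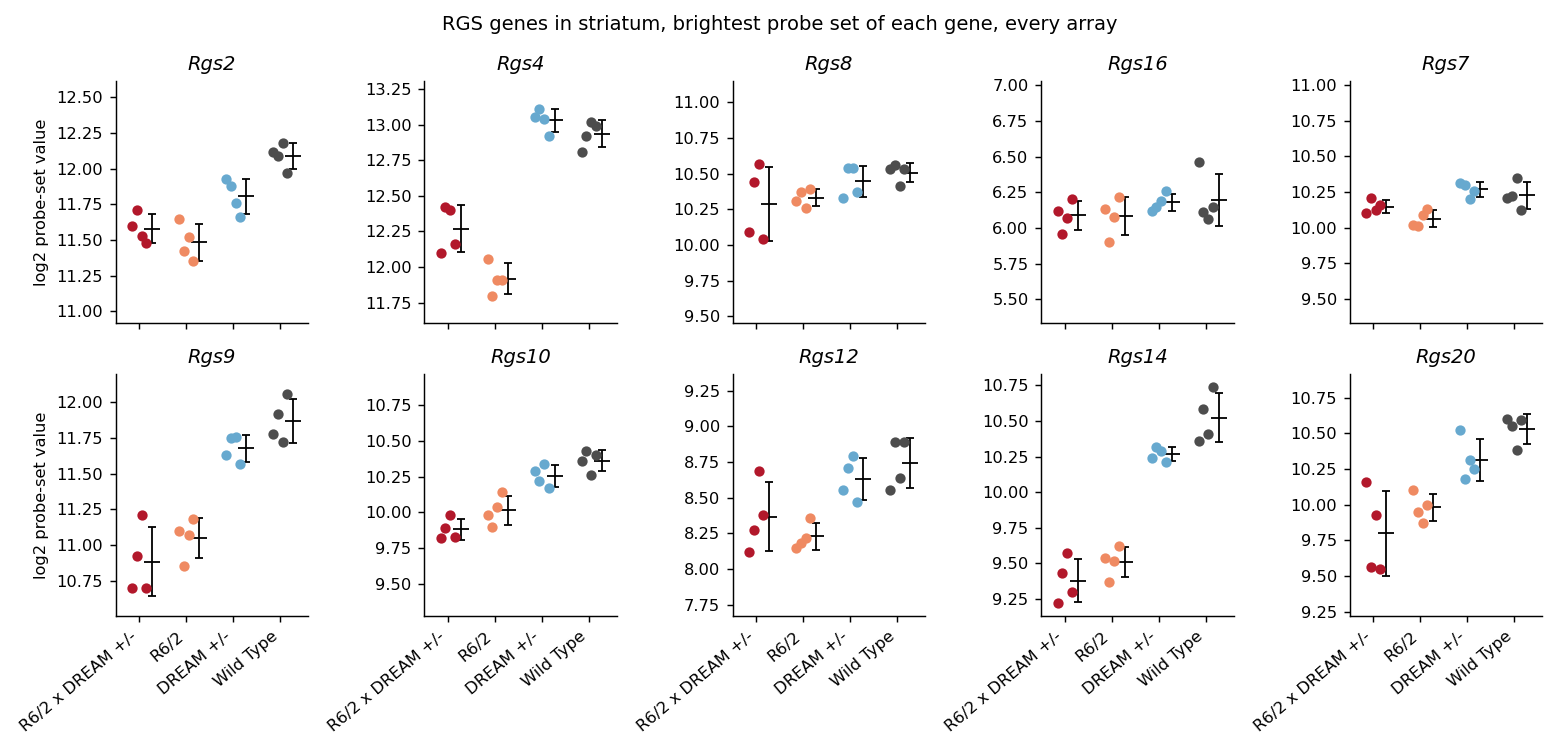
Log2 value of the brightest probe set of each RGS gene on every array (points), with the mean and SD of the 4 arrays beside them (bar and whiskers), by genotype; each panel spans the same log2 range. Rgs4, Rgs9, Rgs10, Rgs14 and Rgs20 lie lower in both R6/2 genotypes than in DREAM +/- and wild type with no overlap, whereas the 4 genotypes of Rgs16 overlap.

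*Rgs4*, a brain-enriched R4 protein that acts on Gi and Gq alpha subunits, had, with *Rgs14*, the lowest change among the brightest probe sets of the 10 genes. The brightest *Rgs4* probe set read 12.06, 11.80, 11.91 and 11.91 in R6/2, against 12.81, 12.92, 13.02 and 12.99 in wild type. No R6/2 array reached the lowest wild-type array. The log2 change was -1.02 (95% interval -1.18 to -0.85, adjusted p = 6.27e-07), which leaves 49.5% of the wild-type level (44.1% to 55.5%). The other *Rgs4* probe sets gave -1.15 (adjusted p = 2.35e-06) and -1.25 (adjusted p = 0.000119), so all 3 probe sets of the gene fell.

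*Rgs2*, an inducible R4 protein with a preference for Gq, read 11.65, 11.42, 11.52 and 11.35 in R6/2, against 12.12, 12.09, 12.18 and 11.97 in wild type on its brightest probe set. The groups did not overlap, and the log2 change was -0.61 (-0.77 to -0.44, adjusted p = 6.74e-05), leaving 65.7% of the wild-type level. Its next probe sets in brightness changed by -0.66 (adjusted p = 0.000245) and -0.83 (adjusted p = 2.86e-05). The fourth *Rgs2* probe set, 1443250_at, was dim in every genotype, with means between 5.60 and 5.92, and did not pass (0.17, adjusted p = 0.218). *Rgs2* is itself induced by neuronal activity. Of 20 immediate early genes 16 fell in the same comparison and 0 rose, where 7.44% of all genes fell and 8.22% rose. Their median log2 change was -0.79, and their part in the *Rgs2* fall was not tested. *Egr2*, *Nr4a2*, *Egr1* and *Homer1*, all induced by synaptic activity, changed by -2.69, -1.24, -0.82 and -0.64.

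The other R4 genes did not pass. *Rgs8*, an R4 protein of neurons that dampens Gi and Gq signals, averaged 10.33 ± 0.06 in R6/2 and 10.51 ± 0.07 in wild type (SD, n = 4 each), with no overlap but a log2 change of only -0.18 (-0.38 to 0.03, adjusted p = 0.268). *Rgs16*, an inducible R4 protein, lay close to 5.94 on all 3 of its probe sets, with group means between 5.87 and 6.25. Its R6/2 changes were -0.11, -0.13 and -0.21, with intervals that reached from -0.47 to 0.07 over the 3 probe sets. The intervals of all 3 included 0.

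In the R7 subfamily the *Rgs9* result depended on the probe set. *Rgs9*, whose long splice form is concentrated in striatum and restrains dopamine D2 and mu opioid receptor signalling, read 11.10, 10.85, 11.07 and 11.18 in R6/2, against 11.78, 11.92, 11.72 and 12.06 in wild type on the bright probe set 1418691_at. The groups were separate, with a log2 change of -0.82 (-1.05 to -0.59, adjusted p = 8.34e-05) and 56.6% of the wild-type level. The faint probe set 1426033_at, close to 5.94, rose, reading 6.12, 6.25, 6.21 and 6.16 in R6/2, against 5.74, 5.82, 6.10 and 5.93 in wild type, without overlap (0.29, 0.13 to 0.44, adjusted p = 0.0135). A further faint probe set, 1439635_at, read 5.91, 5.54, 6.02 and 5.33 in R6/2, against 6.38, 6.32, 7.95 and 5.72 in wild type, where replicate 3 was well above the rest. Its change of -0.89 (-1.56 to -0.22) did not pass (adjusted p = 0.0768), and leaving out single arrays gave -0.44 (adjusted p = 0.136, without wild-type replicate 3) to -1.18 (adjusted p = 0.0156, without wild-type replicate 4), with the adjusted p up to 0.19 (without R6/2 replicate 4). The sources used here do not say which transcripts each probe set detects.

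*Rgs7*, the R7 protein of many neuron types that also restrains Gi and Go, averaged 10.06 ± 0.06 in R6/2 and 10.23 ± 0.09 in wild type (SD, n = 4 each). Its log2 change of -0.16 (-0.28 to -0.05) did not pass (adjusted p = 0.0596). It passed in 5 of 25 alternatives, among them the fits without dim probe sets (adjusted p = 0.0442 above the 40th percentile). *Rgs7* thus lay close to the threshold, and its interval leaves 82.5% to 96.8% of the wild-type level.

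All 3 R12 genes fell. *Rgs14*, a scaffold with a second G-alpha binding motif and Ras-binding domains that is best known from the hippocampus, read 9.54, 9.37, 9.52 and 9.62 in R6/2, against 10.36, 10.58, 10.41 and 10.74 in wild type. The lowest wild-type array stood far above the highest R6/2 array, and the log2 change was -1.01 (-1.19 to -0.83, adjusted p = 1.5e-06), leaving 49.7% of the wild-type level. *Rgs10*, a very small RGS protein that is also made by microglia, read 9.98, 9.90, 10.04 and 10.14 in R6/2, against 10.36, 10.43, 10.26 and 10.40 in wild type. That change was smaller, -0.35 (-0.48 to -0.22, adjusted p = 0.00118), but again without overlap. None of 7 microglial markers passed here or in R6/2 x DREAM +/- against DREAM +/-. In R6/2 x DREAM +/- against wild type 4 of the 7 rose and 1 fell, where 1308 of 18193 genes rose and 1771 fell. Their part in the *Rgs10* values was not tested.

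*Rgs12*, a large multidomain relative of *Rgs14*, read 8.15, 8.18, 8.22 and 8.36 in R6/2, against 8.55, 8.89, 8.64 and 8.89 in wild type. The groups were separate and the log2 change was -0.52 (-0.75 to -0.28, adjusted p = 0.0048). The other *Rgs12* probe sets lay under 5.94 in every genotype, and their changes of 0.02 and -0.06 did not pass.

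*Rgs20*, the RZ protein that is selective for the alpha subunit Gz, ran from 9.87 to 10.10 in R6/2, against 10.38 to 10.60 in wild type. The groups were separate. The change was -0.55 (-0.79 to -0.31, adjusted p = 0.00406), and a further probe set gave -0.68 (-0.90 to -0.46, adjusted p = 0.000339). The faint *Rgs20* probe set 1446199_at changed by 0.14 and did not pass (adjusted p = 0.215).

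The second question is whether the same genes changed when R6/2 was carried on the DREAM +/- background. Set against DREAM +/- striatum, R6/2 x DREAM +/- striatum had 5 of the 10 RGS genes lower on their brightest probe set, *Rgs4*, *Rgs9*, *Rgs10*, *Rgs14* and *Rgs20*, and 0 higher, against 4.71% of all genes lower and 3.63% higher. Their median log2 change over the 10 genes was -0.32, against 0.02 over all genes. Of the 23 probe sets 9 fell and 0 rose, where 4.01% of all probe sets fell. This comparison shares no array with R6/2 against wild type.

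*Rgs4* read 12.10, 12.42, 12.40 and 12.16 in R6/2 x DREAM +/-, against 13.05, 13.11, 13.04 and 12.92 in DREAM +/-. The groups were separate, with a log2 change of -0.76 (-0.93 to -0.59, adjusted p = 2.14e-05) and 59.0% of the DREAM +/- level. The other *Rgs4* probe sets changed by -0.93 and -1.16 (adjusted p = 4.09e-05 and 0.000462). *Rgs14* read 9.22, 9.43, 9.57 and 9.30 in R6/2 x DREAM +/-, against 10.24, 10.32, 10.29 and 10.21 in DREAM +/-, a change of -0.89 (-1.07 to -0.70, adjusted p = 1.35e-05). *Rgs14* held 54.1% of the DREAM +/- level, with no overlap.

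*Rgs9* on its bright probe set read 10.70, 10.92, 11.21 and 10.70 in R6/2 x DREAM +/-, against 11.63, 11.75, 11.76 and 11.57 in DREAM +/-. The groups were separate, with a change of -0.80 (-1.02 to -0.57, adjusted p = 0.000205), and neither faint *Rgs9* probe set passed here (adjusted p = 0.745 and 0.544). *Rgs10* read 9.82, 9.89, 9.98 and 9.83 in R6/2 x DREAM +/-, against 10.29, 10.22, 10.34 and 10.17 in DREAM +/-, a change of -0.38 (-0.51 to -0.24, adjusted p = 0.00128). *Rgs20* ran from 9.55 to 10.16 in R6/2 x DREAM +/-, against 10.18 to 10.52 in DREAM +/- on its brightest probe set, so both genes were separate between the groups. *Rgs20* changed by -0.52 on its brightest probe set (-0.76 to -0.27, adjusted p = 0.0108) and by -0.52 on the next (adjusted p = 0.00576). The first of these *Rgs20* calls was lost when the fit held only the 8 arrays compared (adjusted p = 0.0562).

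*Rgs2* and *Rgs12* fell with R6/2 on the normal DREAM background and did not pass here on their brightest probe sets. *Rgs2* read 11.60, 11.71, 11.53 and 11.48 in R6/2 x DREAM +/-, against 11.93, 11.88, 11.76 and 11.66 in DREAM +/-, so the groups overlapped. Its change was -0.23 (-0.39 to -0.07, adjusted p = 0.0907). On the probe set 1447830_s_at *Rgs2* changed by -0.37 and passed (adjusted p = 0.028), a call lost without R6/2 x DREAM +/- replicate 1 or 4 or DREAM +/- replicate 1 or 2 (adjusted p up to 0.101). *Rgs12* changed by -0.27 (-0.50 to -0.03, adjusted p = 0.185), and it passed with array weights (adjusted p = 0.0307) and without R6/2 x DREAM +/- replicate 3 (-0.37, adjusted p = 0.0246). *Rgs7*, *Rgs8* and *Rgs16* did not pass on their brightest probe sets, with changes of -0.12, -0.16 and -0.09.

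**Figure D2:**
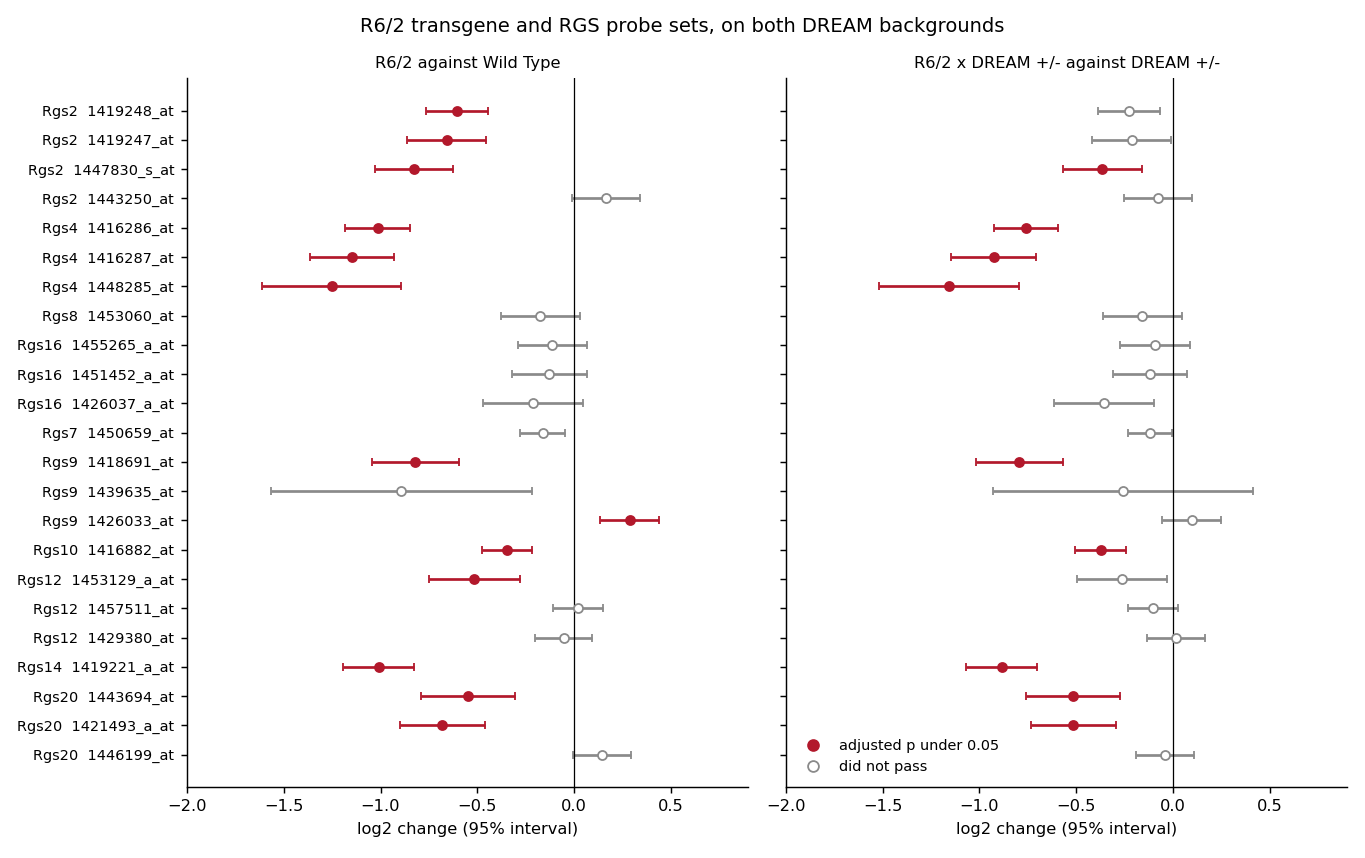
Log2 change with its 95% interval for each of the 23 RGS probe sets, in R6/2 against wild type (left) and in R6/2 x DREAM +/- against DREAM +/- (right); filled points passed at an adjusted p under 0.05. Probe sets are ordered by subfamily, then by brightness within a gene. All filled points lie below 0 except that of the faint Rgs9 probe set 1426033_at on the left.

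Whether the R6/2 effect itself differed with the DREAM genotype was tested by the interaction. None of the 23 RGS probe sets passed, and limma called 0% of all 34945 probe sets. At an unadjusted p under 0.05 there were 4 of 23 RGS probe sets, 3 of *Rgs2* and 1 of *Rgs4*, and 2121 over the table (6.07%). The *Rgs2* differences were 0.38 (0.15 to 0.61), 0.44 (0.15 to 0.73) and 0.46 (0.17 to 0.75) on the log2 scale, each a less negative R6/2 change on the DREAM +/- background than on the normal one, but with an adjusted p of 0.724 for all 3. On the brightest *Rgs4* probe set the difference was 0.26 (0.02 to 0.49, adjusted p = 0.817). The other *Rgs4* probe sets gave 0.22 (-0.09 to 0.53, adjusted p = 0.87) and 0.095 (-0.41 to 0.60, adjusted p = 0.968). For *Rgs9*, *Rgs10*, *Rgs14* and *Rgs20* the differences were 0.03, -0.03, 0.13 and 0.04, with intervals that all included 0. That *Rgs2* and *Rgs12* passed on the normal background and not on the DREAM +/- background on their brightest probe sets was thus not shown to be a difference.

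The third question is how RGS genes differed with the DREAM +/- genotype in R6/2 striatum. *Rgs4* was the gene that rose. In R6/2 x DREAM +/- against R6/2, the arrays of *Rgs4* listed above lay at 12.10 to 12.42 in R6/2 x DREAM +/- and at 11.80 to 12.06 in R6/2, without overlap. The log2 change was 0.35 (0.18 to 0.52, adjusted p = 0.0137), or 127% of the R6/2 level (114% to 143%). Its second probe set read 11.09, 11.59, 11.28 and 11.28 in R6/2 x DREAM +/-, against 11.01, 10.61, 10.76 and 10.89 in R6/2, a change of 0.49 (0.28 to 0.71, adjusted p = 0.00895). Both calls held under all 25 alternatives, with an adjusted p of 0.05 at the highest after rounding. The third probe set changed by 0.42 (0.06 to 0.78) and did not pass (adjusted p = 0.146). There R6/2 x DREAM +/- replicate 3 read 10.05, against 10.73, 11.21 and 10.78 in the rest of its group, and without that array the change was 0.63 (adjusted p = 0.00488). Without R6/2 x DREAM +/- replicate 2 it was 0.25 (adjusted p = 0.392).

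Ordered by level, *Rgs4* was lowest in R6/2 (11.92 ± 0.11), then R6/2 x DREAM +/- (12.27 ± 0.16), wild type (12.94 ± 0.09) and DREAM +/- (13.03 ± 0.08; SD, n = 4 each). The last 2 overlapped on this brightest probe set, and their difference did not pass (DREAM +/- against wild type 0.10, -0.07 to 0.26, adjusted p = 0.653). There the R6/2 x DREAM +/- level stayed below wild type, with a change of -0.67 (-0.83 to -0.50, adjusted p = 2.87e-05). In DREAM +/- against wild type the second *Rgs4* probe set changed by 0.27 (0.06 to 0.49, adjusted p = 0.218), without overlap. The third changed by 0.32 (-0.04 to 0.68, adjusted p = 0.426), and neither passed. The R6/2 arrays enter both the fall of *Rgs4* against wild type and its rise with DREAM +/-, so these 2 values are not independent.

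Markers of cortical projection neurons, which could enter with tissue next to the striatum and in which *Rgs4* is also expressed, moved with this *Rgs4* result. Of 9 measured, 5 were higher in R6/2 x DREAM +/- than in R6/2 and 0 lower (median 0.33, against -0.03 over all genes), with 2.91% of all genes higher and 4.73% lower. Their mean log2 level ran from 8.04 to 8.36 in R6/2 x DREAM +/-, from 7.54 to 7.93 in R6/2, from 8.17 to 8.37 in DREAM +/- and from 8.09 to 8.29 in wild type. In R6/2 x DREAM +/- against R6/2 *Slc17a7*, a vesicular glutamate transporter of cortical neurons, changed by 1.02 and *Neurod6*, a cortical transcription factor, by 0.87. In R6/2 against wild type 5 of the 9 fell, where 7.44% of all genes fell. On the DREAM +/- background 0 of the 9 passed with R6/2, where 4.71% of all genes fell and 3.63% rose. *Rgs4* fell to 59.0% there. The part of these markers in the rise or the falls of *Rgs4* was not tested.

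No other RGS gene passed on a bright probe set in R6/2 x DREAM +/- against R6/2: 9 of the 10 genes did not pass on their brightest probe set. Over the 23 probe sets 2 rose and 1 fell, against 3.53% of all probe sets higher and 4.22% lower. All 3 are of *Rgs4* and *Rgs2*. The 1 that fell was the dim *Rgs2* probe set 1443250_at, which ran from 5.33 to 5.82 in R6/2 x DREAM +/- and from 5.81 upward in R6/2 (-0.31, adjusted p = 0.0298). Those groups overlapped, and the call was lost without any 1 of 5 arrays (R6/2 x DREAM +/- replicates 1 and 4 and R6/2 replicates 1, 3 and 4; adjusted p up to 0.0905) and when only the 8 arrays compared were fitted (0.0952). The 3 bright *Rgs2* probe sets changed by 0.10, 0.26 and 0.17, none of which passed (adjusted p = 0.499, 0.108 and 0.313). *Rgs9* and *Rgs14* changed by -0.17 (-0.39 to 0.06) and -0.13 (-0.31 to 0.05).

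**Figure D3:**
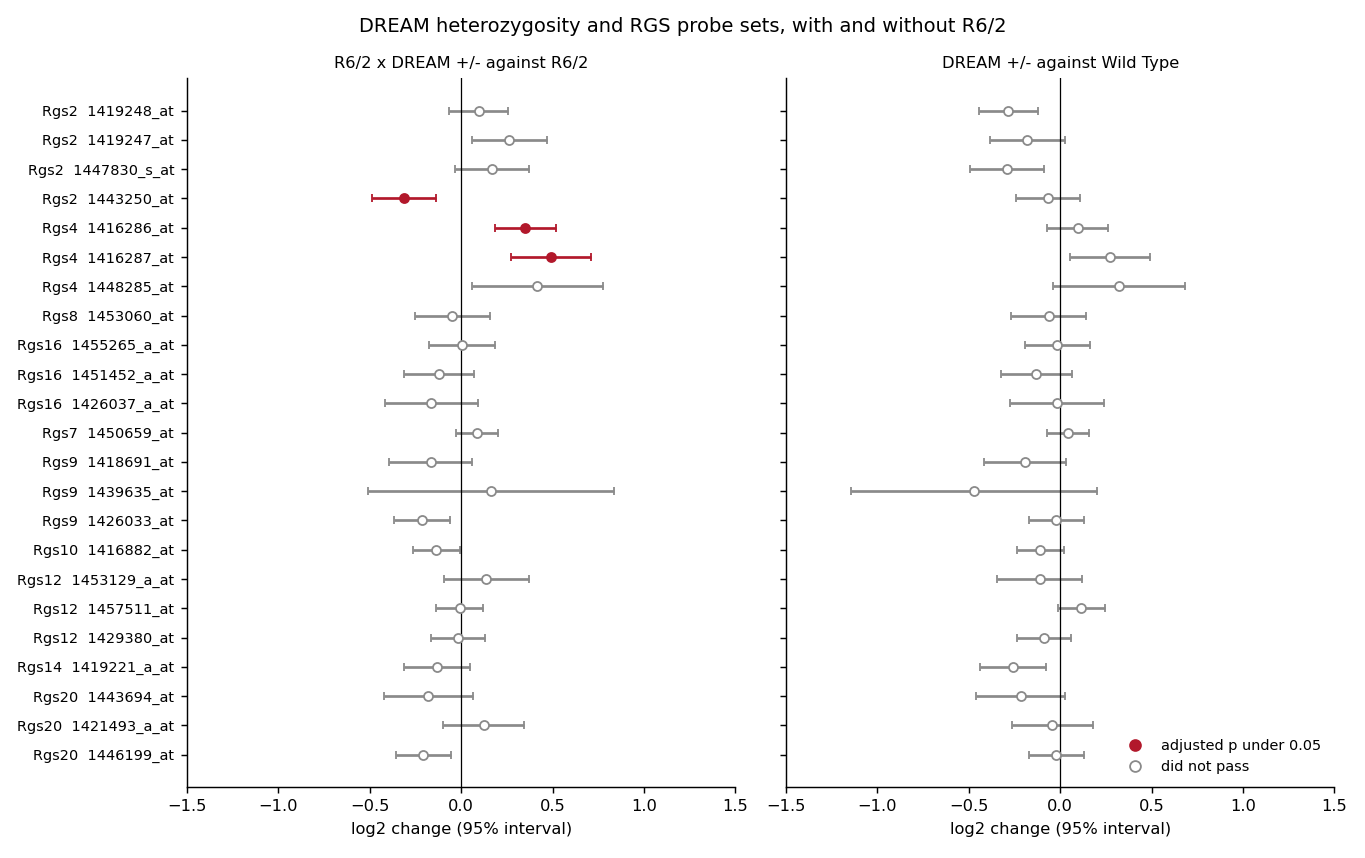
Log2 change with its 95% interval for each of the 23 RGS probe sets, in R6/2 x DREAM +/- against R6/2 (left) and in DREAM +/- against wild type (right); filled points passed at an adjusted p under 0.05. Only 2 Rgs4 probe sets (higher) and the dim Rgs2 probe set 1443250_at (lower) are filled, all on the left.

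In animals without the R6/2 transgene no RGS probe set passed: 0 of 23 did so in DREAM +/- against wild type with limma, where 2.26% of all probe sets passed. At an unadjusted p under 0.05 there were 4 of 23, against 14.0% of all probe sets, so that count lay near the share of the whole table. *Rgs2* read 11.93, 11.88, 11.76 and 11.66 in DREAM +/-, against 12.12, 12.09, 12.18 and 11.97 in wild type. The arrays did not overlap, but the change of -0.28 (-0.44 to -0.12) did not pass (adjusted p = 0.067). *Rgs2* did pass with a trended and robust variance (adjusted p = 0.0385), with array weights (0.0332) and without R6/2 x DREAM +/- replicate 3 and R6/2 replicate 1 (0.0474), each an adjusted p from limma. *Rgs14* changed by -0.26 (-0.44 to -0.08, adjusted p = 0.152) and the second *Rgs4* probe set by 0.27 (0.06 to 0.49, adjusted p = 0.218). Immediate early genes moved in this comparison too, with 7 of 20 lower and 0 higher (median -0.45, against -0.02 over all genes), where 1.17% of all genes fell.

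Against wild type, R6/2 x DREAM +/- striatum had 7 of 10 RGS genes lower on their brightest probe sets and 0 higher, with 9.73% of all genes lower. Over the 23 probe sets 13 were lower, with 8.50% of all probe sets lower. *Rgs14* held 45.3% of the wild-type level (-1.14, adjusted p = 4.1e-07) and *Rgs9* 50.4% (-0.99, adjusted p = 1.17e-05). *Rgs10* changed by -0.48, *Rgs20* by -0.73 and *Rgs2* by -0.51, all with an adjusted p of 0.000364 or less. *Rgs12* changed by -0.38 (adjusted p = 0.0271), a call lost when only the 8 arrays compared were fitted (adjusted p = 0.103) and without any 1 of 5 of them. The *Rgs16* probe set 1426037_a_at changed by -0.38 (adjusted p = 0.0451), and this call was lost in 13 of 24 alternatives. The second *Rgs2* probe set (-0.40, adjusted p = 0.00992) was lost when only the 8 arrays compared were fitted (0.0594). The wild-type arrays also enter the R6/2 against wild type comparison.

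Medium spiny neuron markers moved with the R6/2 comparisons too. Of 12 measured, 10 fell in R6/2 against wild type and 0 rose (median -0.76), and 10 fell in R6/2 x DREAM +/- against DREAM +/- (median -0.67). Over all genes 7.44% fell and 8.22% rose in the first comparison (median 0.03). In the second, 4.71% of all genes fell and 3.63% rose (median 0.02). The mean log2 level of these markers ran from 11.08 to 11.48 in R6/2 x DREAM +/-, from 11.18 to 11.37 in R6/2, from 11.80 to 11.91 in DREAM +/- and from 11.93 to 12.01 in wild type, so both R6/2 genotypes lay below both others. In R6/2 against wild type, *Scn4b* (a sodium channel subunit) changed by -1.48, *Penk* (enkephalin) by -0.90, *Gpr6* (an orphan receptor) by -0.86 and *Ppp1r1b* (DARPP-32) by -0.76. Oligodendrocyte markers moved in the same comparisons: 3 of 7 fell and 0 rose in each, with *Mobp*, *Mal* and *Ugt8a* at -0.36, -0.50 and -0.60 in R6/2 against wild type. Their mean log2 level ran from 12.14 to 12.24 in R6/2 x DREAM +/-, from 12.10 to 12.24 in R6/2, from 12.38 to 12.45 in DREAM +/- and from 12.31 to 12.50 in wild type. Of 8 astrocyte markers 2 fell and 1 rose in R6/2 against wild type (median -0.20). On the DREAM +/- background 2 of the 8 fell with R6/2 and 0 rose (median -0.15). The part of medium spiny neuron, oligodendrocyte or astrocyte RNA as a whole in the RGS falls was not tested. The immediate early genes ran from 8.51 to 8.66 in R6/2 x DREAM +/-, from 8.35 to 8.75 in R6/2, from 8.84 to 9.02 in DREAM +/- and from 9.16 to 9.50 in wild type, so DREAM +/- lay between the R6/2 genotypes and wild type. The group means of *Rgs2* stood in the same order, at 11.58 in R6/2 x DREAM +/-, 11.49 in R6/2, 11.81 in DREAM +/- and 12.09 in wild type. Of the steps in this order, R6/2 x DREAM +/- against R6/2 (adjusted p = 0.499) and against DREAM +/- (0.0907) did not pass. Nor did DREAM +/- against wild type (0.067). The part of the immediate early genes in the *Rgs2* values was not tested either.

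**Figure D4:**
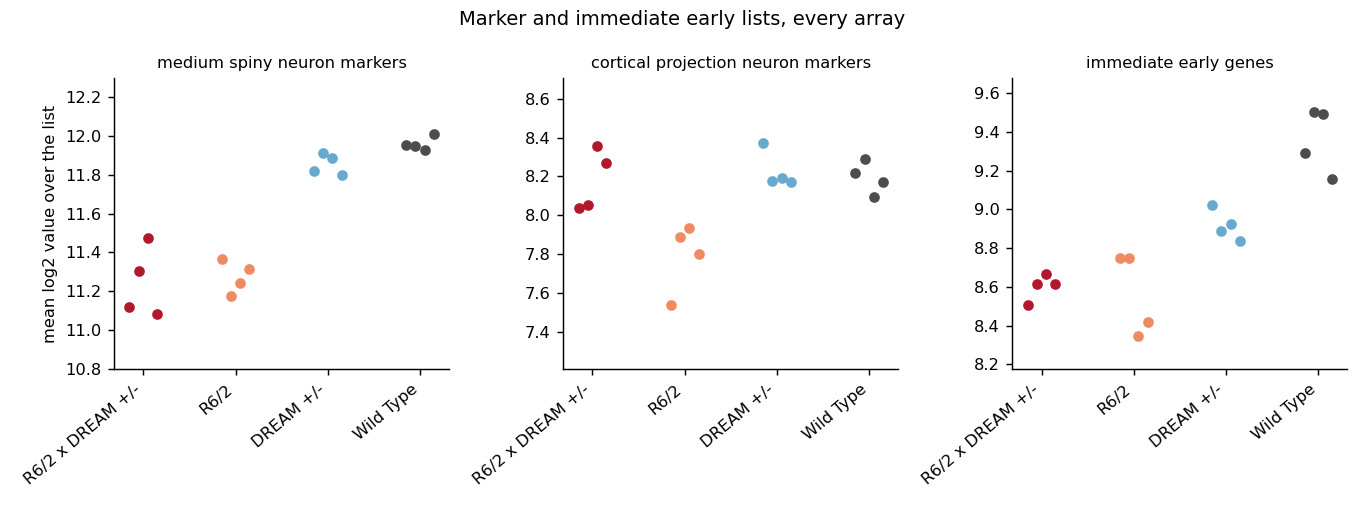
Mean log2 value over 12 medium spiny neuron markers, 9 cortical projection neuron markers and 20 immediate early genes on every array (points), by genotype; the panels span the same log2 range. The medium spiny neuron markers are lower in both R6/2 genotypes, the cortical markers are lowest in R6/2, and the immediate early genes run highest in wild type.

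The genes whose values ran closest to each RGS gene over the 16 arrays were found by the mean absolute difference of values centred on each gene's own mean, among 13008 genes above the brightness level. The closest to *Rgs4* were *Arpp19*, *Strn* and *Cnr1*, at 0.090, 0.092 and 0.092 log2 units, where *Rgs4* itself deviated by 0.44 on average. The closest to *Rgs14* were *Gabrd* (0.073), *Rgs9* (0.079) and *Penk* (0.081), and those closest to *Rgs9* were *Itpka* (0.062), *Kcnip2* (0.063) and *Gabrd* (0.067). *Rgs2* ran closest to *Bhlhe40* (0.072), *Egr3* (0.081) and *Stk32a* (0.081). *Rgs10* was nearest to *Ramp1* (0.041), *Rgs12* to *Srebf2* (0.067), *Rgs20* to *Sbsn* (0.10) and *Rgs16*, on its probe set with a call, to *Cish* (0.098). By the measure given for *Rgs4*, *Rgs14* itself deviated by 0.47, *Rgs9* by 0.40 and *Rgs2* by 0.22. For *Rgs10*, *Rgs12*, *Rgs20* and *Rgs16* it was 0.18, 0.22, 0.27 and 0.17. Relative to this, the nearest gene was furthest away for *Rgs16*, followed by *Rgs20*. These distances are a description over arrays that share genotypes.

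The other genes of the RGS domain family were counted in the same way. Of 15 other measured genes with an RGS domain, 1 fell and 2 rose in R6/2 against wild type, and 12 did not pass (median 0.08, against 0.03 over all genes). Over all genes 7.44% fell and 8.22% rose, so the count that fell lay near that share. *Rgs11*, an R7 member like *Rgs9*, changed by -0.69 (adjusted p = 0.000282). *Rgs19*, an RZ member like *Rgs20* that acts on Gi, rose by 0.67 (adjusted p = 3.73e-06), and the dim *Rgs13* rose by 0.47 (adjusted p = 0.00939). The same 3 genes passed on the DREAM +/- background, with *Rgs11* at -0.58, *Rgs19* at 0.68 and *Rgs13* at 0.51. There 4.71% of all genes fell and 3.63% rose. In R6/2 x DREAM +/- against R6/2, *Rgs17*, also of the RZ group, was the 1 of 15 that passed (-0.29, adjusted p = 0.0166). In that comparison 4.73% of all genes fell and 2.91% rose, so this count lay near the share of the whole table.

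Genes for proteins that bind or anchor RGS proteins were read next. Of 8 measured binding partners, 3 fell in R6/2 against wild type and 0 rose (median -0.22). Over all genes 7.44% fell and 8.22% rose (median 0.03). *Gnb5*, the beta subunit that R7 proteins need for their stability, changed by -0.45 (adjusted p = 1.27e-05) and *Rgs7bp*, which tethers them to the membrane, by -0.34 (adjusted p = 0.00106). On the DREAM +/- background they changed by -0.42 and -0.41 and both passed. *Rgs9bp*, the retinal anchor, was dim and changed by 0.11 (adjusted p = 0.291).

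G-protein alpha subunits are the substrates of RGS proteins. In R6/2 against wild type 7.44% of all genes fell and 8.22% rose, so 1 of 12 lies near either share. Of 12 alpha subunits 1 rose and 0 fell in R6/2 against wild type (median 0.00): *Gnai2* rose by 0.35 (adjusted p = 0.0223), and *Gnal*, the striatal Golf subunit, changed by -0.21 without passing (adjusted p = 0.0599). On the DREAM +/- background *Gnal* fell with R6/2 (-0.25, adjusted p = 0.0427). *Gnai2* fell in R6/2 x DREAM +/- against R6/2 (-0.43, adjusted p = 0.0127). Of 12 beta and gamma subunits other than *Gnb5*, 2 fell and 3 rose in R6/2 against wild type. *Gng3* (0.47), *Gng4* (0.51) and *Gng11* (0.33) rose, and *Gng2* fell (-0.39). Among 12 other inhibitors and regulators of G proteins 2 fell, *Grk5*, a receptor kinase, at -0.34 and *Ric8b*, a chaperone of Golf, at -0.31, and *Pdcl* rose (0.27).

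Receptors lie upstream of RGS proteins and effectors downstream. For the counts that follow, 7.44% of all genes fell and 8.22% rose in R6/2 against wild type. On the DREAM +/- background 4.71% of all genes fell with R6/2 and 3.63% rose. Of 18 measured striatal G-protein-coupled receptors 7 fell and 2 rose in R6/2 against wild type (median -0.30), led by *Cnr1*, the cannabinoid receptor (-1.15, adjusted p = 3.62e-07), *Htr1b*, a serotonin receptor (-1.01), *Gpr6* (-0.86) and *Drd1*, the dopamine receptor of the direct pathway (-0.76). On the DREAM +/- background 9 fell and 2 rose. The effector list also holds genes that are not direct targets of G proteins, such as *Ppp1r1b* and *Pde1b*. Of its 21 genes 7 fell and 0 rose in R6/2 against wild type (median -0.13). *Adcy5*, the main striatal adenylyl cyclase, changed by -0.91, *Pde1b* by -0.57 and *Plcb1*, a target of Gq, by -0.49. In R6/2 x DREAM +/- against R6/2 *Plcb1* was among 3 genes of this list that rose (0.18, adjusted p = 0.0472). The 1 that fell was *Ppp1r1b* (-0.30, adjusted p = 0.0456), also a medium spiny neuron marker here. Over all genes 2.91% rose and 4.73% fell there. The lists were written from textbook knowledge with earlier results of these data known, and some genes stand on more than 1 of them.

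**Figure D5:**
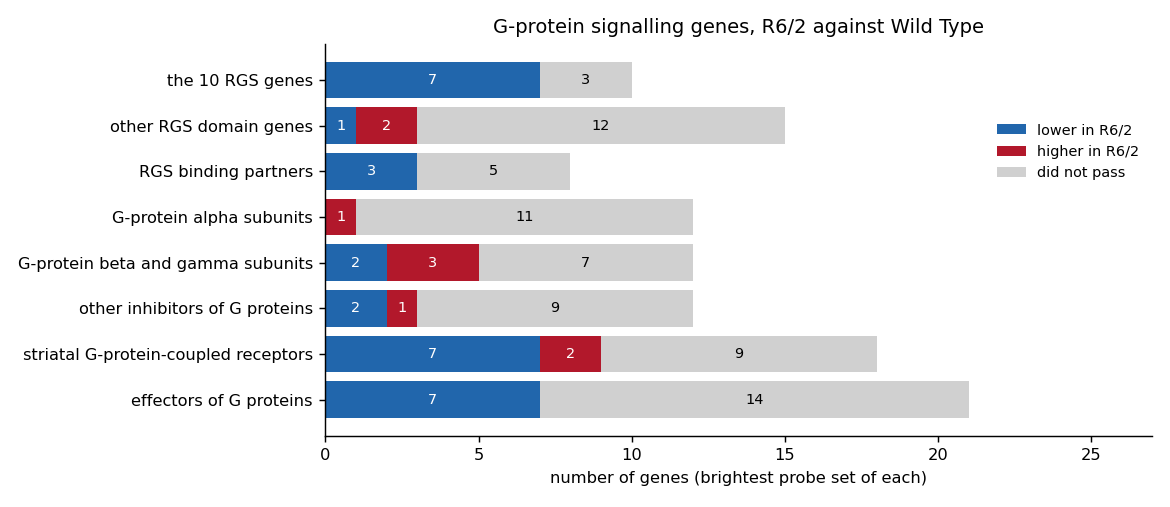
Number of genes that were lower, higher or did not pass in R6/2 against wild type, for the 10 RGS genes and 7 lists of G-protein signalling genes, each gene read on its brightest probe set. Of the RGS genes 7 of 10 were lower, where 7.44% of all genes were lower and 8.22% higher. Lower too were 7 of 18 receptors, 7 of 21 genes on the effector list and 3 of 8 binding partners. Of other RGS domain genes 1 of 15 was lower, and of alpha subunits 0 of 12. Of beta and gamma subunits and of other inhibitors 2 of 12 each were lower. The 10 genes and the lists were chosen with earlier results of these data known, so these counts are descriptive.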

How the data were processed

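Total RNA of whole striatum was hybridised to Affymetrix mouse genome arrays, 4 per genotype. The authors deposited 1 table of log2 values for 45101 probe sets on 16 arrays, from 3.34 to 14.71. The submitters' processing notes list RMA and affy without a version, and the sources used here name no genome build. RMA brings all arrays to 1 distribution, which hides a shift common to most genes. For arrays their number limits the precision: the median SD within a genotype was 0.0753 to 0.107 (log2). Replicate arrays correlated at 0.991 to 0.998, so none was a copy.

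Titles gave each array's group and replicate number. Gene symbols came from the supplied platform annotation: 34945 had 1 symbol, 932 several and 9160 none, and 64 were controls. By Entrez identifier 99.42% matched RefSeq's gene table and 0 symbols differed. Each probe set with 1 symbol was fitted in R 4.3.3 by limma 3.58.1 (functions lmFit and eBayes), with 1 mean per genotype over all 16 arrays and Benjamini-Hochberg adjustment over 34945 per comparison. This fit was first tested on simulated data with known changes. Noise there was drawn independently for each value, so that test did not cover differences between whole arrays. List counts use each gene's brightest probe set. All probe sets of the 10 genes are accounted for, those with a call by name. From each list up to 4 genes per comparison are named by lowest unadjusted p, and for each RGS gene with a call the 3 nearest genes by mean absolute difference were found. The members and lists were chosen with earlier results of these data known.

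Alternatives were the replicate number as a block, quantile normalization, a common median, the 40th and 60th brightness percentiles (5.94 and 7.27), trended and robust variance, array weights, only the groups compared, and leaving out arrays.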

Additional observations from a re-analysis of the deposited data

Results flagged for a closer look

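In 2 of 92 groups of 4 arrays an RGS value stood far from the other arrays of its genotype by Dixon's criterion, which marks about 1 group in 20 by chance. *Rgs2* on the probe set 1419247_at read 11.01 on the second R6/2 x DREAM +/- array, where its 3 fellow arrays lay between 10.71 and 10.74. The dim *Rgs12* probe set 1429380_at read 5.31 in wild-type replicate 3, against 5.50 to 5.53 in the rest of wild type. No interaction of R6/2 and DREAM +/- passed for an RGS probe set.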

How the results depend on the processing

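Counts of RGS probe sets kept within 1.5 times of the reported count in each comparison except DREAM +/- against wild type, where 0 became 2 with the replicate block, both of *Rgs2* (adjusted p = 0.0251 and 0.0408), 1 with a trended and robust variance, 1 with array weights and 1 without R6/2 replicate 1 and R6/2 x DREAM +/- replicate 3. Leaving out single arrays gave 13 to 15 RGS probe sets in R6/2 against wild type, 8 to 11 in R6/2 x DREAM +/- against DREAM +/-, 0 to 0 in DREAM +/- against wild type, 2 to 4 in R6/2 x DREAM +/- against R6/2 and 11 to 14 in R6/2 x DREAM +/- against wild type. Of 2967 single values under alternatives, 31 lost and 33 gained a call, and 0 of the called values changed sign. Another 51 values, uncalled on both sides, changed sign.

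Over the whole table, array weights gave 3741 calls in R6/2 x DREAM +/- against DREAM +/- (2420 reported) and 1550 in DREAM +/- against wild type (790 reported). Fits of only the groups compared gave 1749 in R6/2 x DREAM +/- against R6/2 (2711 reported) and 2785 in R6/2 x DREAM +/- against wild type (5454 reported). Leaving out single arrays gave 1372 to 2875 calls for R6/2 on the DREAM +/- background, with the count past 1.5 times lower without DREAM +/- replicate 2 or 3. It gave 423 to 1403 for DREAM +/- without R6/2, past that bound without any DREAM +/- array or wild-type replicate 2 or 3. It gave 1410 to 3971 for DREAM +/- on R6/2, past it without R6/2 x DREAM +/- replicate 2 or R6/2 replicate 1, 2 or 4. The interaction called 0 to 1 there and 1 after a shift to a common median. The causes were not tested. Same-numbered arrays did not meet the criterion for pairing, a correlation of deviations over 0.1 in every pair: it was met in 8 of 24 pairs, with a range of -0.425 to 0.279 and a median of 0.053, against -0.0049 for different numbers. Of the 16 arrays, 8 correlated best with their own number, a hint from the data and not the design. Beside *Rgs2*, the replicate block gained *Rgs9* 1439635_at in R6/2 against wild type (adjusted p = 0.0302). It gained *Rgs2* in R6/2 x DREAM +/- against DREAM +/- (0.0358) and *Rgs16* 1451452_a_at in R6/2 x DREAM +/- against wild type (0.0212), and lost *Rgs16* 1426037_a_at there (0.0544).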
